A study of Mus musculus with 47 samples.

Results

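The 8 genes described here were Hba-a1, Hba-a2, Hbb-bs, Hbb-bt, Hbb-y, Hba-x, Alas2 and Slc4a1, 6 globin genes and 2 other genes of the red cell lineage, out of 54532 genes in the tables. They were chosen by symbol and followed in all 47 libraries. The libraries held polyadenylated RNA of dissected mouse olfactory epithelium, the nasal sheet that carries the odor-sensing neurons. They covered 7 ages from the day of birth (P0) through P3, P5, P7, P10 and P14 to P21, and 2 strain labels, C57BL/6J (called WT here, 23 libraries) and OIVT;Kir2.1 (called Kir, 24 libraries). Each age held 3 WT and 3 Kir libraries, except for 4 of each at P0 and P7 and 4 Kir libraries at P10. The controls carried the C57BL/6J label with no other allele named, and the labels spell out neither OIVT nor the promoter that drives Kir2.1. They also do not say whether a library came from 1 animal. The p-values below therefore judge differences between groups against the spread between libraries, and some of that spread may be technical. The labels describe no step that removes blood.

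Adult hemoglobin is a tetramer of alpha-type and beta-type globin chains that carries oxygen in red cells. In adult mice the alpha chains come from Hba-a1 and Hba-a2 and the beta chains from Hbb-bs and Hbb-bt, while Hba-x and Hbb-y code for zeta-type and epsilon-type chains of the embryo's first red cells. Alas2 is the erythroid form of the enzyme that starts heme synthesis, and Slc4a1 codes for band 3, the chloride and bicarbonate exchanger of the red cell membrane. Mature mammalian red cells have no nucleus, and the youngest ones in blood, the reticulocytes, still hold globin mRNA.

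The alpha-type genes lay on chromosome 11 and the beta-type genes on chromosome 7. On GRCm38 (the build mm10), GENCODE release M21 placed Hba-x at chr11:32276400-32278116, Hba-a1 at chr11:32283511-32284465 and Hba-a2 at chr11:32296489-32297298, all on the plus strand. Hbb-bt at chr7:103812524-103813996, Hbb-bs at chr7:103826534-103828096 and Hbb-y at chr7:103851749-103853216 were on the minus strand. Alas2 was at chrX:150547375-150570638 on the plus strand and Slc4a1 at chr11:102348824-102366203 on the minus strand. The adult copies share much of their transcript sequence. Of the 50-base windows of the longest coding transcript of Hba-a2, 86.9% were also found in that of Hba-a1, and 67.5% in the other direction. For Hbb-bs and Hbb-bt the shares were 65.8% and 58.3%. The embryonic Hbb-y and Hba-x shared no such window with Hbb-bs and Hba-a1. For this reason the 6 globins were followed in TPM (read numbers scaled by transcript length and depth, in which RSEM divides shared reads among copies), with counts as an alternative.

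Promoters are shown because the 4 adult genes moved together across libraries, as described below, while Hbb-y stayed near 0. The sequences are the 250 bases before the RefSeq start of each gene on GRCm38.p6, written 5' to 3' on the gene's strand, with the searched motifs in capitals: GATAA (the core of GATA sites), the CACCC box, the CCAAT box and the TATAA box, on either strand; matches of different motifs may overlap. Hba-a2 is at chr11:32296242-32296491 (plus strand), Hbb-bs at chr7:103827929-103828178, Hbb-bt at chr7:103813924-103814173 and Hbb-y at chr7:103853208-103853457 (minus strand).
Hba-a2: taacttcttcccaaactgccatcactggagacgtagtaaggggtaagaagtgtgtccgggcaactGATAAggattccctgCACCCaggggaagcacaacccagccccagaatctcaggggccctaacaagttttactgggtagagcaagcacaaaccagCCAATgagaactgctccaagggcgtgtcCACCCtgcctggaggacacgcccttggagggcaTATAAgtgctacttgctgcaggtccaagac
Hbb-bs: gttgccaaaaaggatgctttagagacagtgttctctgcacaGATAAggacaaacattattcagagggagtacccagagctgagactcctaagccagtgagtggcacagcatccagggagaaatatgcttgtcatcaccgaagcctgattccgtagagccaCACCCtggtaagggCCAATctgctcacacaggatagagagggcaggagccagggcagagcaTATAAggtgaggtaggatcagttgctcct
Hbb-bt: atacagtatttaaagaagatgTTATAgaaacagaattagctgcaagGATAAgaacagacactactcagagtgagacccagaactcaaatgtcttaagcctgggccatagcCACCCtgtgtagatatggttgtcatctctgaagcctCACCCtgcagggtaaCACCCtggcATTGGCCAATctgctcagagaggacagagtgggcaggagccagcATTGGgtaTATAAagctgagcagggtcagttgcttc
Hbb-y: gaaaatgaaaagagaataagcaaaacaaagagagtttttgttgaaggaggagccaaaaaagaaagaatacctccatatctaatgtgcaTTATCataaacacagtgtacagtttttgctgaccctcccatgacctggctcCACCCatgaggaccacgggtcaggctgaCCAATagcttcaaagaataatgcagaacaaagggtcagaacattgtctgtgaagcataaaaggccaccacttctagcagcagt

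Of the 8 genes, 7 had an entry in the RefSeq promoter table. GATAA and CACCC occurred in 7 of 7, TATAA in 6 and CCAAT in 5. Among all 32851 RefSeq promoters of this length, 22.6% held GATAA, 52.0% CACCC, 33.8% CCAAT and 22.8% TATAA. All 4 motifs stood together in 4 of the 7, which were the 4 adult globins, and in 0.968% of all promoters. In Hba-a1 the TATAA nearest to the start began 27 bases before it, in Hba-a2 30, in Hbb-bs 29 and in Hbb-bt 28. The promoters of Hba-a1 and Hba-a2 were identical over 247 bases, offset by 3, so Hba-a1 is not printed again. Hbb-bs and Hbb-bt, by contrast, shared no identical run above 14 bases. In Hbb-bt CACCC was found 3 times and CCAAT 3 times, against 1 of each in Hbb-bs, and in Hbb-y these letters held no TATAA. These matches describe the letters only.

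Gene counts per library ran from 8107547 to 30385151. Sample titles began with cry3, cry4 or cry6, a prefix that the labels leave unexplained. It was cry4 throughout P0, P3, P14 and P21 and cry6 throughout P5 and P10. At P7 each genotype had 1 cry4, 2 cry6 and 1 cry3 library. WT P0 replicate 3 was titled P0 but staged P3, and was kept at P0. Kcnj2, the gene of Kir2.1, had group means of 41.6 to 99.7 CPM (counts scaled to a common library size) in WT and 499 to 1495 CPM in Kir. In 5 Kir libraries, however, it was lower: 132.4 CPM in P3 replicate 3, 146.3 and 173.0 CPM in P7 (replicates 1 and 4) and 208.8 and 238.1 CPM in P21 (replicates 1 and 2). In Kir P10 replicates 1 and 2, 17.7% and 33.5% of reads were unmapped. The olfactory neuron gene Omp was present in each library (109.6 to 1823 TPM).

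The adult globins were detected in all 47 libraries and differed widely between libraries of 1 group. Hba-a1 stood in WT P0 at 105.7, 212.6, 176.2 and 171.2 TPM in replicates 1 to 4, and in WT P3 at 67.8, 42.6 and 87.2 TPM. In WT P21 it stood at 80.9, 379.4 and 232.2 TPM, and in Kir P21 at 1015, 466.9 and 172.9 TPM. In WT the P0 values thus lay above the P3 values without overlap and the P21 values on both sides of the P0 range, while the Kir P21 values lay within or above it. In this bulk tissue, fewer red cells and less globin mRNA per red cell cannot be told apart. In Kir P0 it was 122.1, 114.7, 365.7 and 220.0 TPM, and in Kir P3 64.3, 63.7 and 78.9 TPM. In the other groups it ran from 29.9 TPM (Kir P7 replicate 1) to 322.5 TPM (Kir P5 replicate 2). By group mean the order began with Kir P21 (552 ± 427 TPM, SD, n = 3), WT P21 (231 ± 149, n = 3) and Kir P5 (230 ± 92.3, n = 3) and ended with Kir P14 (63.8 ± 12.7, n = 3) and Kir P7 (63.1 ± 36.5, n = 4), and each group overlapped the next in that order.

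Hba-a2, the other adult alpha gene, had a higher TPM than Hba-a1 in 47 of 47 libraries. It stood in WT P0 at 254.8, 346.9, 495.4 and 445.8 TPM, in WT P3 at 157.3, 122.4 and 199.8 TPM and in WT P21 at 187.7, 759.3 and 450.7 TPM. In Kir P0 it was 299.5, 371.3, 780.9 and 520.6 TPM, in Kir P3 147.8, 139.7 and 154.4 TPM and in Kir P21 2188, 1080 and 420.1 TPM. As with Hba-a1, the P3 libraries were low in both genotypes, and Kir P21 replicate 1 was the highest library of the series. The next highest for Hba-a2 was Kir P10 replicate 3 at 1376 TPM.

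Hbb-bs, the more abundant beta gene, exceeded Hbb-bt in 47 of 47 libraries. In WT it stood at 231.4, 631.6, 443.9 and 518.9 TPM at P0, at 256.6, 136.2 and 350.1 TPM at P3 and at 268.9, 952.0 and 914.1 TPM at P21. In Kir it stood at 358.3, 341.8, 1075 and 704.0 TPM at P0, at 249.1, 235.2 and 274.9 TPM at P3 and at 3608, 1210 and 356.2 TPM at P21. The WT P0 and P3 libraries overlapped for this gene, and the Kir P21 libraries ran from below the WT P0 median to the highest value of the series. Group means ran from 1725 ± 1686 TPM (Kir P21, n = 3) and 1047 ± 197 TPM (Kir P5, n = 3) down to 248 ± 107 TPM (WT P3, n = 3), again with each group overlapping the next.

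Hbb-bt, the lesser beta gene, stood in WT at 39.4, 102.5, 65.4 and 90.3 TPM at P0, at 24.8, 15.03 and 43.5 TPM at P3 and at 30.1, 130.5 and 120.1 TPM at P21. In Kir it stood at 64.8, 52.3, 125.0 and 109.1 TPM at P0, at 30.9, 30.5 and 33.4 TPM at P3 and at 497.0, 179.2 and 44.5 TPM at P21. In Kir the P0 and P3 libraries did not overlap, and in WT 1 P3 library reached into the P0 range. In the order of its group means, 2 pairs of neighbours did not overlap, WT P10 (71.6 ± 6.31 TPM, n = 3) above WT P7 (45.0 ± 19.9, n = 4) and WT P14 (43.7 ± 11.1, n = 3) above Kir P3 (31.6 ± 1.59, n = 3).

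**Figure D1:**
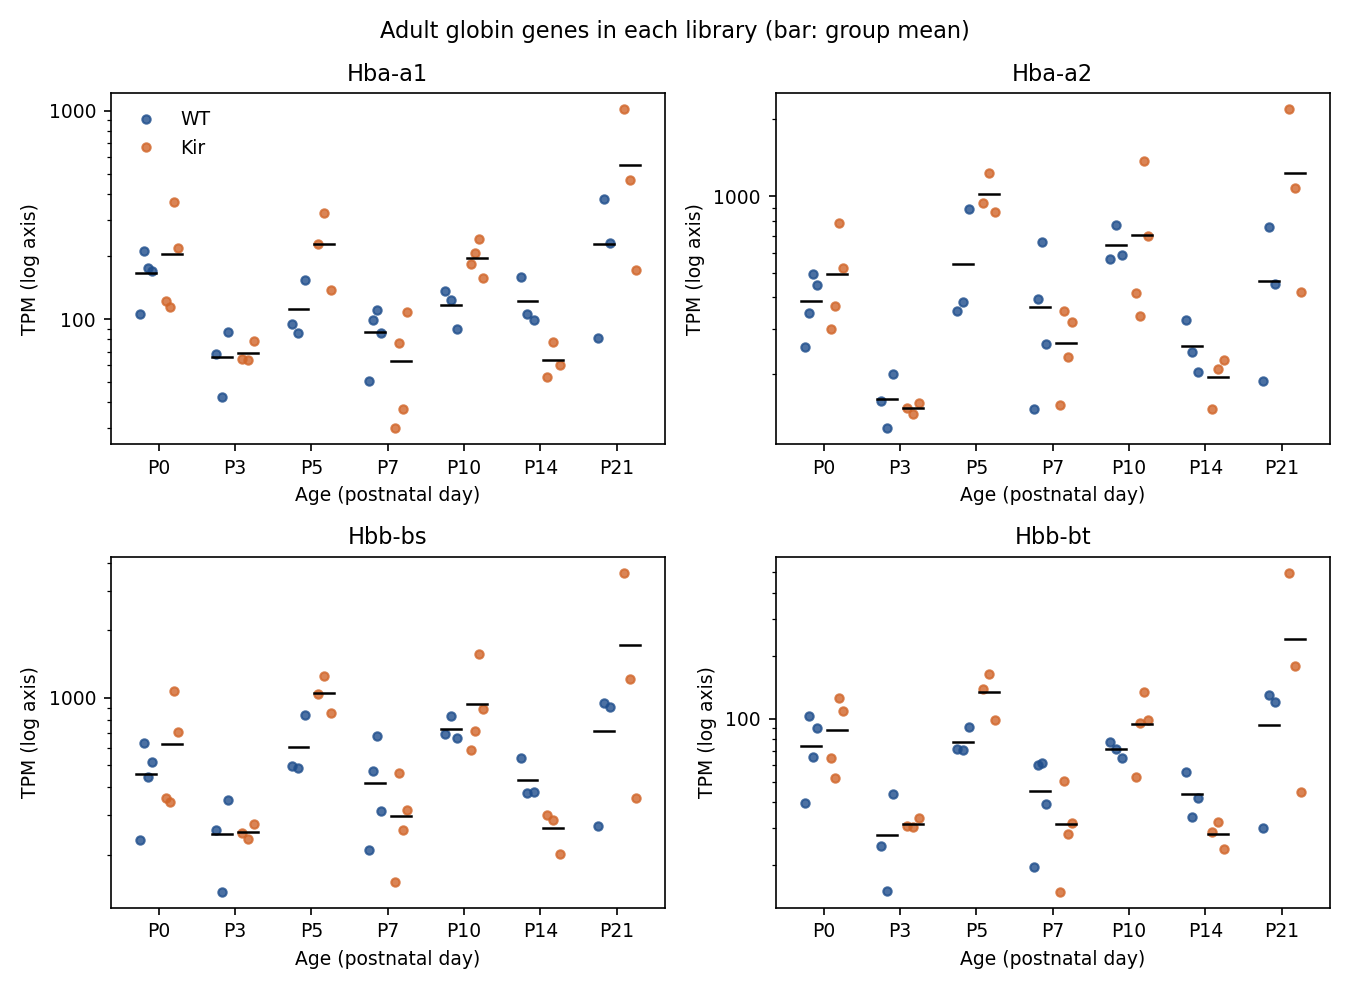
TPM of the 4 adult globin genes (vertical log axes) in each library by age (horizontal axis), WT and Kir libraries as points and group means as bars. Kir P21 replicate 1 lies above the rest in each panel, for Hbb-bs at 3608 TPM against 1568 TPM for the next library.

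Summed over the 4 adult globins, a library held between 316.3 TPM (WT P3 replicate 2) and 7308 TPM (Kir P21 replicate 1), that is 0.0316% to 0.731% of its total TPM. The second highest sum was 3320 TPM (Kir P10 replicate 3), so the highest library stood 2.20 times above the next and 7.15 times above the median library. The 6 highest sums were all in Kir libraries, which made up 24 of the 47, of 4 different ages, namely P21, P10, P5, P21, P0 and P5. This ranking was made after the values were seen and was not tested. Kir libraries also had low sums, at 469.1 to 541.7 TPM at P3 (WT 316.3 to 680.6 TPM). At P14 they had 513.6 to 604.8 TPM, below the 723.3 to 1079 TPM of WT. At P5 and P10, where all libraries had the prefix cry6, age and prefix also cannot be told apart. At P7, which held all 3 prefixes, the sum was 424.9 TPM in the WT and 346.5 TPM in the Kir cry4 library, 1022 and 1507 TPM in the WT and 942.8 and 557.5 TPM in the Kir cry6 libraries, and 701.5 TPM (WT) and 775.0 TPM (Kir) in the cry3 libraries.

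The embryonic genes were near the limit of detection at each age. Hbb-y reached at most 1.35 TPM (Kir P7 replicate 1), with 171 counts in all 47 libraries together against 63723 for Hbb-bs, and had 0 counts in 8 libraries. A count of 0 there allows up to 3 counts, or 0.194 to 0.310 CPM depending on the depth, which covers counting error only. Hba-x reached at most 0.80 TPM (WT P0 replicate 4), with 65 counts in all. It had 0 counts in 18 libraries, which allows up to 0.0987 to 0.328 CPM. The mean of Hbb-y was 0.220 ± 0.149 TPM in WT P0 (n = 4), 0.640 ± 0.385 TPM in WT P3 (n = 3) and 0.103 ± 0.179 TPM in WT P21 (n = 3). Hba-x had its highest group mean, 0.333 ± 0.302 TPM (n = 4), in Kir P0 and was listed at 0 TPM in all Kir P14 and Kir P21 libraries.

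Alas2 was low, below 10 TPM in 38 of 47 libraries. In WT it stood at 3.90, 10, 6.70 and 7.05 TPM at P0 and at 7.87, 12.1 and 7.55 TPM at P21. In Kir it stood at 6.86, 4.21, 8.12 and 5.57 TPM at P0 and at 32.0, 11.7 and 6.49 TPM at P21. The 32.0 TPM of Kir P21 replicate 1 compares with 12.4 TPM in the next library, Kir P10 replicate 3. Its group means ran from 16.7 ± 13.5 TPM (Kir P21, n = 3) to 3.72 ± 0.833 TPM (Kir P3, n = 3), with overlap between all neighbours.

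Slc4a1 is given in CPM, because its TPM per CPM varied from 0.258 to 2.66 between libraries (0.720 to 2.48 for Alas2) and its 5 annotated transcripts run from 218 to 4545 bases. At the upper end, 6 counts in WT P0 replicate 1 appear as 1.30 TPM. It was below 5 CPM in 43 libraries. In WT it stood at 0.489, 1.14, 1.67 and 1.13 CPM at P0 and at 0.193, 13.1 and 4.62 CPM at P21. In Kir it stood at 0.913, 1.39, 1.39 and 1.06 CPM at P0 and at 41.8, 11.1 and 2.55 CPM at P21. The Kir P21 libraries all lay above the Kir P0 libraries, and WT P21 replicate 1, at 2 counts, lay below each WT P0 library.

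**Figure D2:**
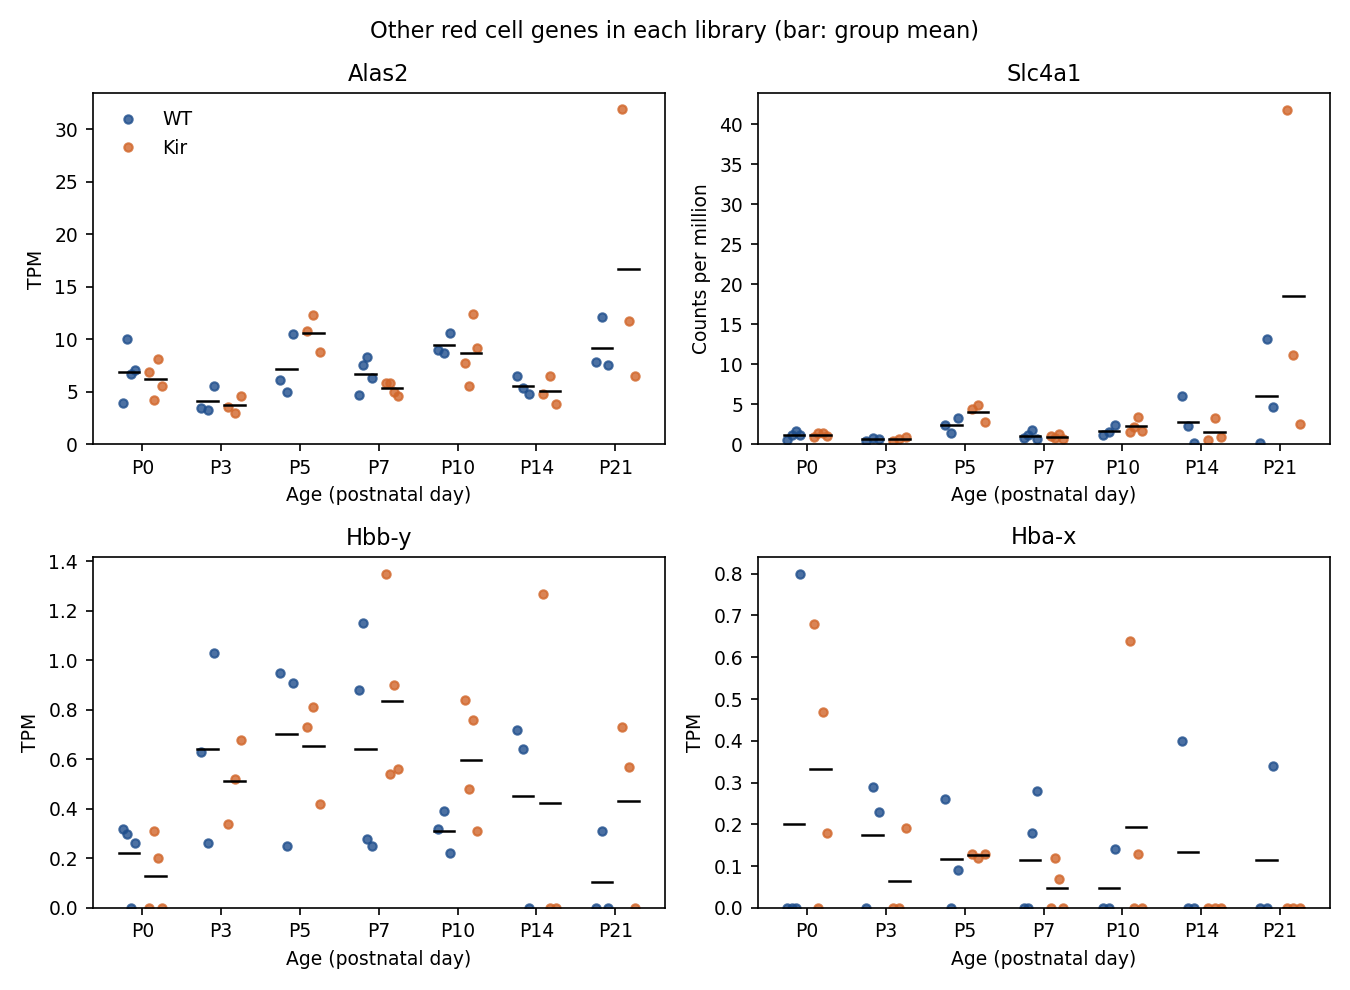
Levels of Alas2, Slc4a1, Hbb-y and Hba-x (vertical axes) in each library by age (horizontal axis), WT and Kir libraries as points and group means as bars. Alas2 and Slc4a1 have their highest point in Kir P21 replicate 1 (32.0 TPM and 41.8 CPM), while Hbb-y and Hba-x stay at or below 1.35 and 0.80 TPM.

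The library with the most globin was also the highest for many red cell lineage genes of low level. Kir P21 replicate 1 was the highest of the 47 libraries for 7 of 20 listed genes of the red cell membrane and skeleton (35%) and 5 of 10 erythroid transcription factors and receptor genes (50%). It was also the highest for 3 of 16 enzyme and chaperone genes and 2 of 16 genes of heme synthesis and iron uptake. Of the 27211 genes tested in TPM, 1.55% (422) were highest there. Those genes had at least 0.5 TPM in at least 3 libraries, while the list counts set no such minimum, so the sets are unlike. The blood group gene Rhd had 5.09 TPM (54 counts) there, 1.82 TPM in the next library and a median of 0.47 TPM over the other libraries. Cldn13 had 4.65 against 1.21 TPM in the next library. Hemgn, a nuclear gene of erythroid precursors, had 3.85 against 1.72 TPM, and Trim10 2.68 against 1.18 TPM. For these 4 genes the next highest library was WT P21 replicate 2. Gata1, the master transcription factor of the lineage, had 0.89 TPM in Kir P21 replicate 1 (12 counts) and 0.75 TPM in WT P21 replicate 2 (9 counts). Other counted genes led the next library by little: Rhag had 1.36 against 1.35 TPM, Epor 1.53 against 1.48 TPM and Nfe2 1.95 against 1.81 TPM. These genes were singled out after their values were seen, so no test is given. Other lists had genes with their highest value there too: 2 of 12 neutrophil markers (Ngp and Elane), 1 of 8 B cell markers (Ms4a1), 1 of 4 sustentacular markers (Cyp2g1) and 1 of 7 other globins (Hbq1b). For the 12 hemoglobin and heme clearance genes and for the other 8 marker lists this count was 0.

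**Figure D3:**
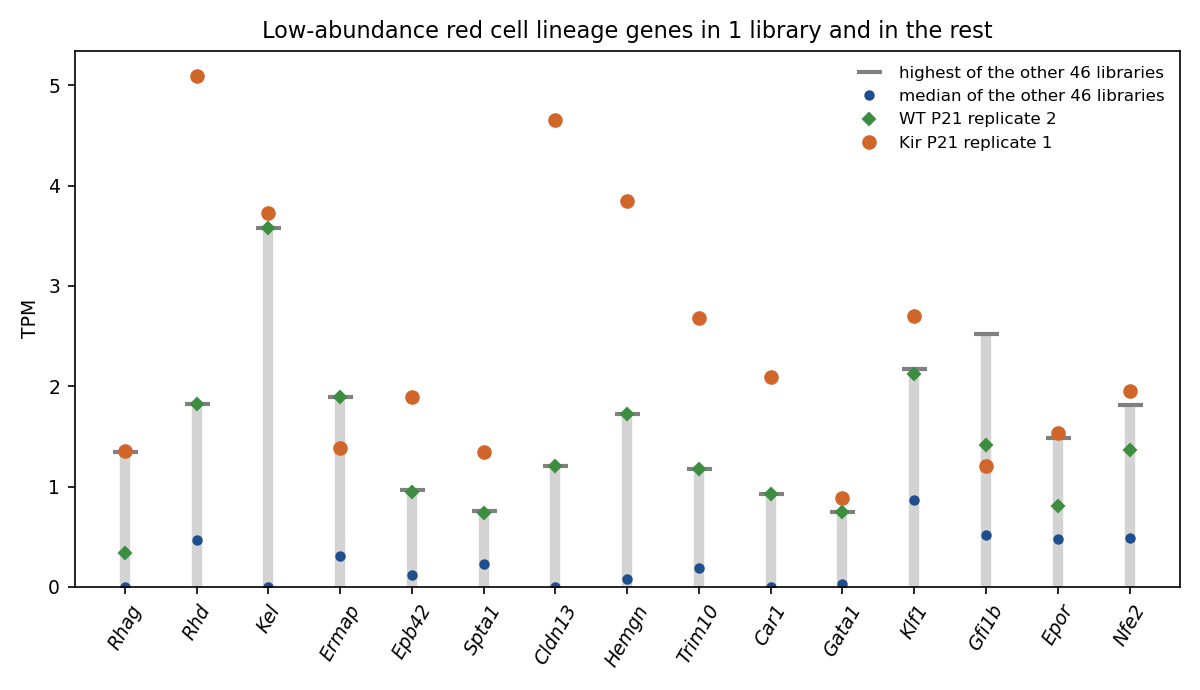
TPM (vertical axis) of 15 low-abundance red cell lineage genes picked after their values were seen (horizontal axis), in Kir P21 replicate 1, in WT P21 replicate 2, and as the highest and the median value of the other libraries. Rhd stands at 5.09 TPM in Kir P21 replicate 1 against at most 1.82 TPM elsewhere, while Kel differs little, 3.73 against 3.58 TPM.

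Markers of other blood and bone cells were measured beside this. The summed neutrophil list (12 genes) was 339.8 TPM in Kir P21 replicate 1, within 279.8 to 461.8 TPM in WT P21 and the lowest of 339.8 to 511.8 TPM in Kir P21. Most of that sum is Ltf, with a mean of 372.4 TPM over all libraries, and the low-level neutrophil genes Ngp and Elane were highest of all libraries in Kir P21 replicate 1. The bone and osteoclast list (6 genes) was 549.6 TPM there, within 457.2 to 1152 TPM in Kir P21 and 302.2 to 1141 TPM in WT P21. B cell markers (8 genes) summed to 14.7 to 27.3 TPM in WT P21 and 17.1 to 28.4 TPM in Kir P21, where replicate 1 had the 28.4 TPM. Endothelial markers (10 genes) summed to 44.1 to 71.1 and 46.2 to 52.2 TPM, platelet markers (10 genes) to 23.6 to 33.7 and 23.1 to 32.7 TPM, and macrophage markers (6 genes) to 59.2 to 78.4 and 98.3 to 111.7 TPM. Single genes of these lists differed. Of the neutrophil markers, Elane was at 0 in 22 of 47 libraries and Mpo in 9, while S100a8 and S100a9 had at least 9.01 and 17.06 TPM. Of the platelet markers, Gp9 was at 0 in 27 libraries, while Pf4 and Itga2b had at least 4.08 and 9.83 TPM. Within groups, the B cell sum had a correlation of 0.58 with the adult globin sum over 47 libraries (its most abundant gene, Vpreb3, 0.52), which is a description of libraries that share their depth and dissection. The part of these cells in the globin values was not tested.

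The comparison of Kir with WT asks whether red cell transcripts differ in the mice labelled for the channel. No member passed the test. Averaged over the 7 ages, Hba-a1 had a log2 fold change of 0.25 ± 0.17 (Kir minus WT, SE; limma adjusted p = 0.588), Hba-a2 0.25 ± 0.17 (limma adjusted p = 0.594), Hbb-bs 0.19 ± 0.19 (limma adjusted p = 0.768) and Hbb-bt 0.22 ± 0.19 (limma adjusted p = 0.699). Alas2 had 0.20 ± 0.13 (edgeR adjusted p = 0.429) and Slc4a1 0.28 ± 0.32 (edgeR adjusted p = 0.682). For the embryonic Hbb-y and Hba-x the differences were 0.07 and -0.02. Leaving out Kir P21 replicate 1 brought these averages to 0.16 for Hba-a1, 0.17 for Hba-a2, 0.07 for Hbb-bs, 0.10 for Hbb-bt, 0.08 for Alas2 and 0.08 for Slc4a1. Leaving out WT P21 replicate 1 gave 0.16 for Hba-a1. Leaving out Kir P21 replicate 3 gave 0.31 for Hbb-bs and 0.35 for Hbb-bt, and Slc4a1 was 0.48 without WT P14 replicate 1 and 0.48 without WT P21 replicate 2. None of the 8 was called, that is, had an adjusted p below 0.05, and none had an unadjusted p below 0.05. The other tool (edgeR on counts for the globins, limma on TPM for Alas2 and Slc4a1) could test 6 of them, without Hbb-y and Hba-x, and 0 of 6 were called or had an unadjusted p below 0.05. Of all genes tested, 10.5% were called by edgeR on counts and 4.95% by limma on log2(TPM + 1).

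None of the 8 was called at any single age by the tool used for it (limma on TPM for the globins, edgeR on counts for Alas2 and Slc4a1), and 0 of 6 were by the other tool. An unadjusted p below 0.05 was reached at P5 by Hba-a1, Hba-a2 and Alas2 and at P21 by Hba-a1, Hba-a2, Alas2 and Slc4a1, and at the other 5 ages by 0 members; with the other tool it was reached by 1 of 6 at P5 and 5 of 6 at P21. The shares of all genes called by edgeR and limma were 1.09% and 0.0331% at P0, 0.703% and 0.162% at P3, 0.105% and 0.022% at P5, 0.0903% and 0.0257% at P7, 3.13% and 0.654% at P10, 1.17% and 0.952% at P14, and 0.743% and 0.592% at P21. The difference at P21 was 1.17 ± 0.48 for Hba-a1 (limma adjusted p = 0.467), 1.31 ± 0.48 for Hba-a2 (limma adjusted p = 0.362) and 0.91 ± 0.53 for Hbb-bs (limma adjusted p = 0.729). It was 1.02 ± 0.52 for Hbb-bt (limma adjusted p = 0.655), 1.04 ± 0.36 for Alas2 (edgeR adjusted p = 0.293) and 1.63 ± 0.75 for Slc4a1 (edgeR adjusted p = 0.546). Without Kir P21 replicate 1 these differences at P21 were 0.56 for Hba-a1, 0.75 for Hba-a2, 0.09 for Hbb-bs, 0.20 for Hbb-bt, 0.26 for Alas2 and 0.20 for Slc4a1. Without Kir P21 replicate 3 they were larger, at 1.83 for Hba-a1, 1.94 for Hba-a2, 1.76 for Hbb-bs, 1.92 for Hbb-bt and 1.42 for Alas2. Without WT P21 replicate 2 Slc4a1 was 2.90 and Hba-a1 1.66, and without WT P21 replicate 1 Hba-a1 was 0.55. A test of whether the genotype difference varied among the 7 ages called none of the 8 (1 of 8, Hba-a1, at an unadjusted p below 0.05, and 1 of 6, also Hba-a1, by the other tool), against 0.381% of genes by edgeR and 0.224% by limma.

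**Figure D4:**
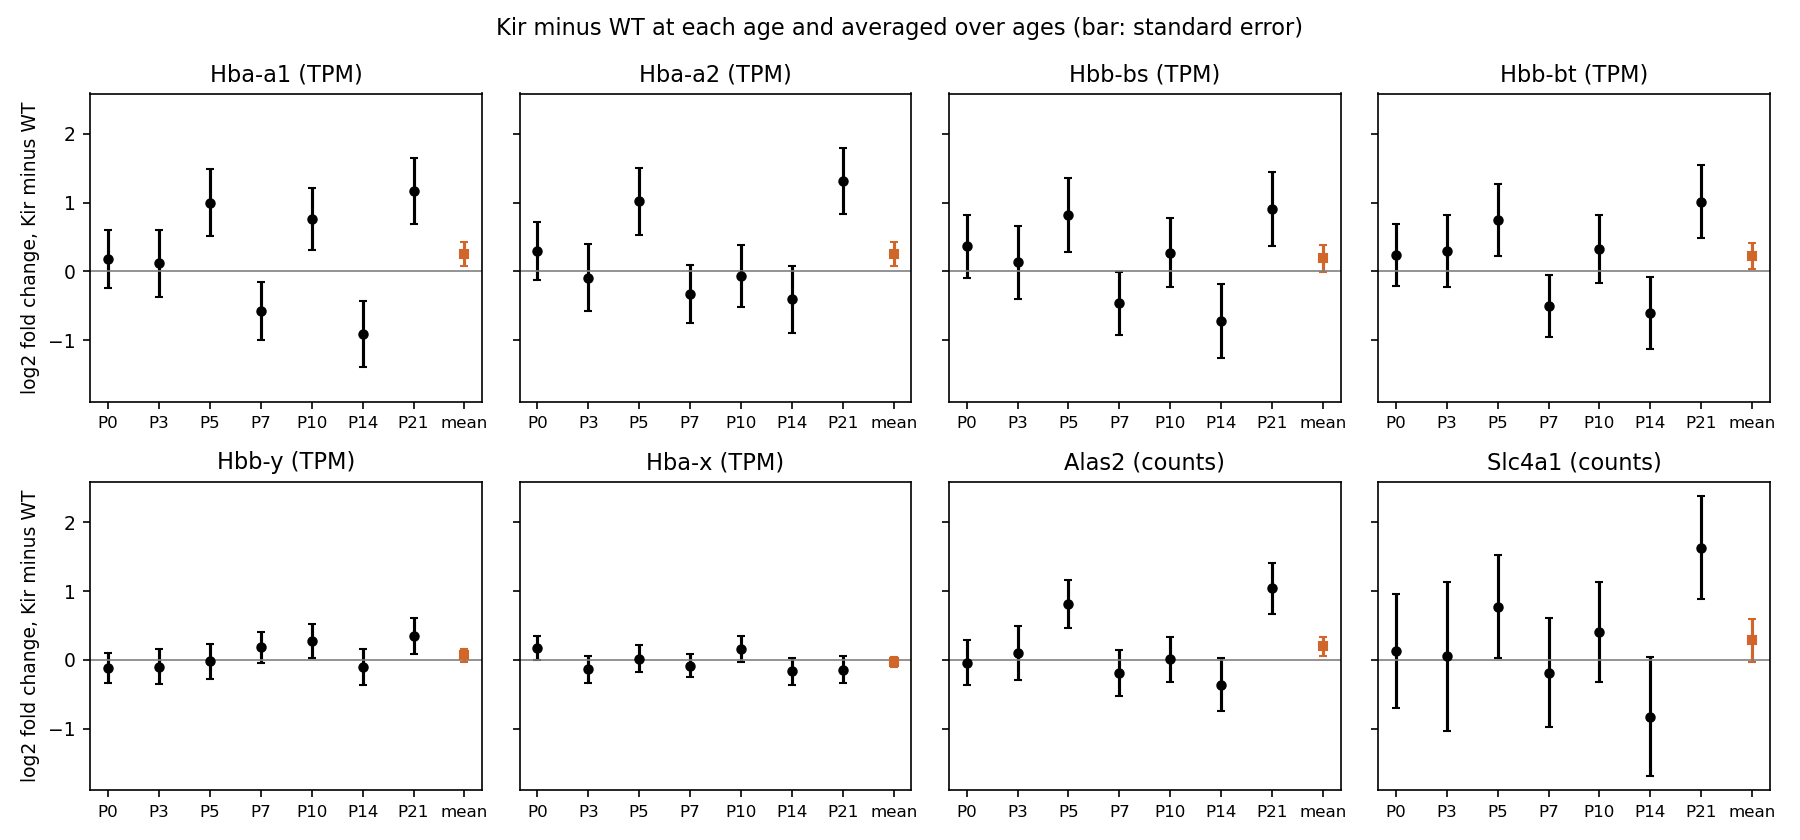
Log2 fold change, Kir minus WT (vertical axes), of each gene at each age and averaged over ages (horizontal axis), points with standard errors as bars. The averages lie between -0.02 and 0.28, and the differences at single ages scatter on both sides of 0, reaching 1.63 for Slc4a1 at P21.

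Counting the ages at which all Kir values lay on 1 side of all WT values gave no common direction. At P0 this held for Slc4a1 alone, with WT higher in TPM (0.77 to 1.30 against 0.46 to 0.64 TPM), but its CPM overlapped (0.489 to 1.67 in WT, 0.913 to 1.39 in Kir). The share of all genes with no overlap was 1.66% at P0. At P5 it held for Hbb-bs and Hbb-bt with Kir higher (13.7% of all genes), for example Hbb-bt at 71.3, 70.8 and 90.8 TPM in WT and 138.1, 163.9 and 98.5 TPM in Kir. At P10 it held for Hba-a1 with Kir higher (5.34% of all genes), at 136.8, 124.0 and 89.9 TPM in WT and 183.1, 208.0, 242.2 and 157.2 TPM in Kir. At P14 it held for Hba-a1, Hbb-bs and Hbb-bt with WT higher (10.4% of all genes), for example Hbb-bs at 537.6, 376.2 and 379.6 TPM in WT and 299.7, 285.0 and 201.8 TPM in Kir. At P3, P7 and P21 it held for 0 of 8 (12.8%, 1.34% and 13.2% of all genes).

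Between birth and P21, Slc4a1 rose in both genotypes, and Hba-a1 and Alas2 rose in Kir. In WT, Slc4a1 rose by 2.44 ± 0.79 on the log2 scale (edgeR adjusted p = 0.00961) from 1.11 ± 0.483 CPM (n = 4) to 5.98 ± 6.57 CPM (n = 3). Without WT P21 replicate 2 the WT change was 1.21 (edgeR adjusted p = 0.254), and by limma on TPM it was 0.20 (adjusted p = 0.813). The other members were not called in WT, with 0.25 for Hba-a1, 0.10 for Hba-a2, 0.52 for Hbb-bs, 0.16 for Hbb-bt and 0.17 for Alas2. Thus 1 of 8 was called where 50.8% of all genes were by edgeR and 32.9% by limma.

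In Kir, Slc4a1 rose by 3.95 ± 0.77 (edgeR adjusted p = 7.0e-05) from 1.19 ± 0.241 CPM (n = 4) to 18.5 ± 20.6 CPM (n = 3). The higher Slc4a1 values at P21, 41.8 and 11.1 CPM, were in replicates 1 and 2, where Kcnj2 was low (208.8 and 238.1 CPM). Replicate 3, with Kcnj2 at 1050 CPM, had Slc4a1 at 2.55 CPM. The part of the Kcnj2 level in the Kir P21 values was not tested. Alas2 rose by 1.24 ± 0.34 (edgeR adjusted p = 0.00249) and Hba-a1 by 1.24 ± 0.45 (limma adjusted p = 0.0333). Hba-a2 had 1.11 (limma adjusted p = 0.0603), Hbb-bs 1.07 (limma adjusted p = 0.105) and Hbb-bt 0.94 (limma adjusted p = 0.156). So 3 of 8 were called, against 48.9% of all genes by edgeR and 30.9% by limma. The call on Hba-a1 was lost with no filter on TPM (1.24, limma adjusted p = 0.0568) and when any of Kir P0 replicates 1 and 2 and Kir P21 replicates 1 and 2 was left out. Without Kir P21 replicate 1, 1 of the 8 was called, Slc4a1 at 2.51 (edgeR adjusted p = 0.00906), with Hba-a1 at 0.63 (limma adjusted p = 0.371) and Alas2 at 0.47 (edgeR adjusted p = 0.268). Without Kir P21 replicate 3, 6 of the 8 were called, and without Kir P0 replicate 3, 5 of 8. When the globins were tested by edgeR on counts instead, 6 of the 6 members tested that way were called. Hba-a2 was also called without the Kir P10 libraries over 15% unmapped (1.11, limma adjusted p = 0.0458). The change from P0 to P21 was not shown to differ between the genotypes: its difference was 0.99 for Hba-a1 (limma adjusted p = 0.841), 1.01 for Hba-a2 (limma adjusted p = 0.832), 1.08 for Alas2 (edgeR adjusted p = 0.628) and 1.5 for Slc4a1 (edgeR adjusted p = 0.882). Without Kir P21 replicate 1 these were 0.38, 0.45, 0.30 and 0.07, and without Kir P21 replicate 3 Hba-a1 was at 1.65 and Hba-a2 at 1.63. Without WT P21 replicate 1 Hba-a1 was at 0.37, and without WT P21 replicate 2 Slc4a1 was at 2.78. None of the 8 was called there (1 of 8, Alas2, at an unadjusted p below 0.05; by the other tool 1 of 6, Slc4a1), against 0.286% of genes by edgeR and 0.198% by limma.

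Within the first 3 days, the alpha gene Hba-a1 fell in WT. Its change from P0 to P3 was -1.34 ± 0.45 (limma adjusted p = 0.0499), from 166 ± 44.5 TPM (n = 4) to 65.9 ± 22.4 TPM (n = 3). Hba-a2 had -1.25 (limma adjusted p = 0.0727), Hbb-bt -1.43 (limma adjusted p = 0.0548), Hbb-bs -0.89 (limma adjusted p = 0.285) and Alas2 -0.81 (edgeR adjusted p = 0.113). By edgeR on counts Hbb-bt was called instead, at -1.55 (adjusted p = 0.0217). That 1 of 8 was called compares with 20.5% of all genes by edgeR and 10.8% by limma, and the call on Hba-a1 did not last under many settings. It was lost when WT P0 replicate 3 was placed at P3, as its stage label has it (-0.93, limma adjusted p = 0.382), with no filter on TPM (limma adjusted p = 0.0809), with no prefix term (limma adjusted p = 0.0641), with a replicate block (limma adjusted p = 0.0913) and without the Kir P10 libraries over 20% (limma adjusted p = 0.0544) or 15% unmapped (limma adjusted p = 0.0588). It was also lost when any of WT P0 replicates 2, 3 and 4 and WT P3 replicates 1 and 2 was left out. In the later WT steps with 1 prefix, 0 of 8 were called, and 0 of 6 by the other tool. At an unadjusted p below 0.05, P14 minus P3 had 1 (Slc4a1), P21 minus P14 had 0 (by the other tool Hbb-bt) and P10 minus P5 had 0. Of all genes, 22.6% (edgeR) and 11.9% (limma) were called in P14 minus P3, 0.0452% and 0.0661% in P21 minus P14, and 1.93% and 0.301% in P10 minus P5.

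A ratio of copies within a library does not depend on how much globin the library holds. Hbb-bt made up 10.4% to 15.3% of the beta-type TPM (Hbb-bs plus Hbb-bt) at P0, 8.80% to 11.5% at P3, 8.24% to 10.5% at P14 and 10.1% to 12.9% at P21, all in cry4 libraries. In WT it was 14.6%, 13.97%, 12.8% and 14.8% at P0 and 8.80%, 9.94% and 11.1% at P3, with no overlap. In Kir it was 15.3%, 13.3%, 10.4% and 13.4% at P0 and 11.0%, 11.5% and 10.8% at P3, where 1 P0 library lay below the P3 libraries. At P21 each genotype's libraries lay above those of P14, with WT at 10.1%, 12.1% and 11.6% against 9.38%, 8.24% and 9.87%, and Kir at 12.1%, 12.9% and 11.1% against 8.71%, 10.1% and 10.5%.

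The log2 ratio of Hbb-bt to Hbb-bs was lower by 0.42 at P3 than at P0 (a difference of -0.57 in WT and -0.26 in Kir), differed by -0.17 between P3 and P14, and was 0.33 higher at P21 than at P14 (0.33 in WT and 0.34 in Kir). These steps were chosen after the shares were seen, so no test is given. Between the genotypes the same ratio differed by 0.03 (mean over ages, Kir minus WT, permutation p = 0.542, adjusted 0.998), with the sign of the mean at 4 of 7 ages.

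For the alpha copies the order depended on the file. Hba-a2 exceeded Hba-a1 in TPM in 47 of 47 libraries, and Hba-a1 exceeded Hba-a2 in counts in 47 of 47, so neither can be called the more abundant copy here. The TPM ratio of Hba-a2 to Hba-a1 also differed by prefix, which outside P7 cannot be told apart from age. It was 3.73 to 6.55 in cry6 libraries apart from 2.27 and 1.62 in Kir P10 replicates 1 and 2. In cry4 libraries it was 1.63 to 3.75 apart from 5.04 in Kir P7 replicate 1. At P7 that Kir cry4 library lay between the Kir cry6 libraries (4.58 and 6.28), while the WT cry4 library (2.87) lay below the WT cry6 libraries (3.98 and 5.98). The 2 cry3 libraries had 3.08 (WT) and 2.95 (Kir). The 2 Kir P10 libraries with the low ratio are those with 17.7% and 33.5% of reads unmapped. They also had 6.44% and 5.17% multiply mapped reads, against 13.4% to 20.6% in the other cry6 libraries. Kir P14 replicate 3, a cry4 library with 16.4% unmapped, had a ratio of 3.75. The part of prefix, age, depth, unmapped and multiply mapped reads in this ratio was not tested. Kir minus WT, its log2 ratio differed by -0.00023 (mean over ages, permutation p = 0.998).

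**Figure D5:**
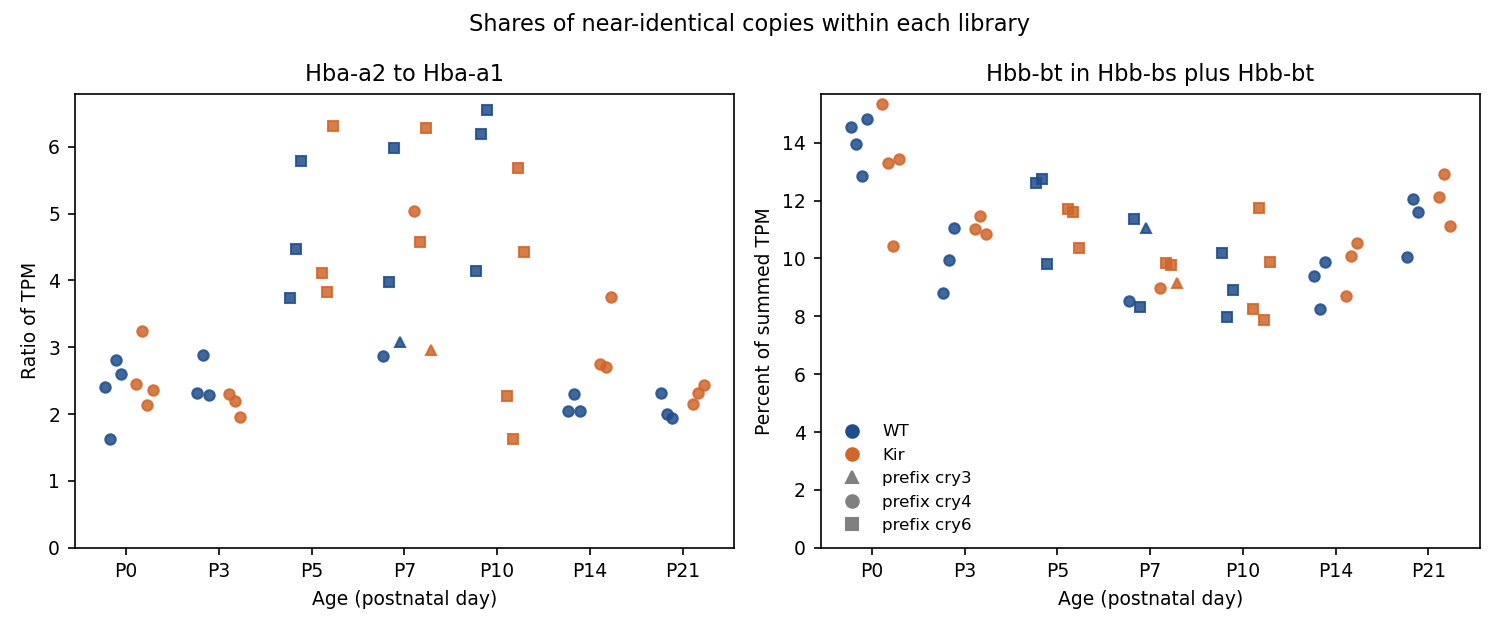
Share of Hbb-bt in the beta-type TPM (percent) and TPM ratio of Hba-a2 to Hba-a1 (vertical axes) in each library by age (horizontal axis), WT and Kir libraries as points. The beta share lies at 10.4% to 15.3% at P0, 8.24% to 10.5% at P14 and 10.1% to 12.9% at P21, and the alpha ratio at P5 and P10, where all libraries have the prefix cry6, is 3.73 or more except in Kir P10 replicates 1 and 2 (2.27 and 1.62).

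For all members except Hba-x, replicate libraries lay further apart than for most of the 27211 genes. The SD of log2(TPM + 1) within groups was 0.64 for Hba-a1, 0.66 for Hba-a2, 0.71 for Hbb-bs and Hbb-bt, 0.65 for Slc4a1 and 0.42 for Alas2, and 0.33 for Hbb-y and 0.23 for Hba-x, against a median of 0.28 over all 27211 genes and 0.23 over genes above 10 TPM. For Hbb-bs, 95.5% of the genes above 10 TPM had a smaller SD. After subtraction of group means, Hbb-bs and Hbb-bt had a correlation of 0.97 over the 47 libraries, Hba-a1 and Hbb-bs 0.89, Hba-a2 and Hbb-bs 0.89, and Hba-a1 and Hba-a2 0.82. Alas2 had 0.79 with Hbb-bs (0.71 without Kir P21 replicate 1) and 0.66 with Slc4a1 (0.49 without it), and Slc4a1 had 0.54 with Hbb-bs (0.37 without it). These correlations use log2(TPM + 1), for Slc4a1 too. The embryonic genes had at most 0.39 with any member. Near-identical copies share reads and all points share their library and depth, so these are descriptions.

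Among the 10 genes most like the summed adult globins within groups, of 18630 genes with a mean of at least 1 TPM, were Rnaset2b (correlation 0.71 over 47 libraries, mean 174.8 TPM), Tmem59 (0.70), Gm15361 (0.69), 2210016F16Rik (0.69), Surf4 (0.67), Uqcrfs1 (0.67), Vmac (0.66), Yipf1 (0.65) and Lamp1 (0.65). None of the genes named here is on the lists of red cell genes. In comparison, Alas2 had 0.77 with that sum (0.71 without Kir P21 replicate 1) and Slc4a1 (CPM) 0.70 (0.61 without it).

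The other genes of the pathway were followed as lists, by edgeR on counts, from P0 to P21. Of all genes 24% rose and 26.8% fell in WT, and 22.9% rose and 25.9% fell in Kir, with a median change of -0.05 and -0.04. Among 16 genes of heme synthesis and iron uptake, 6 rose and 3 fell in WT and 5 rose and 3 fell in Kir, with medians of 0.19 and 0.07 (6 and 1 in WT without WT P21 replicate 2). Alas1, the housekeeping form of the enzyme that Alas2 provides in red cells, rose by 1.53 ± 0.18 in WT (edgeR adjusted p = 1.33e-08), from 92.8 to 317.3 TPM. Uros, the uroporphyrinogen synthase, rose by 0.80 and the mitochondrial iron carrier Slc25a37 by 0.75, while Tmem14c fell by 0.45.

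Among the 20 genes of the red cell membrane and skeleton, 15 could be tested, and 6 rose and 3 fell in WT (median 0.46), while 10 rose and 2 fell in Kir (median 0.997). Without Kir P21 replicate 1 the Kir counts were 8 and 2, and without WT P21 replicate 2 the WT counts were 3 and 4 of 16. The named members that rose, the skeleton genes Dmtn (1.34 ± 0.19), Add2 (1.12 ± 0.15) and Ank1 (1.44 ± 0.24, edgeR adjusted p = 8.95e-06), stood at 43.9, 47.5 and 3.36 TPM in WT P0. They are also known in neurons. Epb41, protein 4.1 of the skeleton, fell by 0.55. Of the 17 enzyme and chaperone genes, Ahsp was not matched and 14 could be tested. In WT 6 rose and 3 fell and in Kir 9 rose and 3 fell (7 and 3 without Kir P21 replicate 1), with medians of 0.72 and 0.99. Car2, a carbonic anhydrase, rose by 2.12 ± 0.16 in WT (edgeR adjusted p = 1.31e-12), Fn3k by 1.67 and the lipoxygenase Alox15 by 1.56.

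Of 10 erythroid transcription factors and receptor genes, 9 could be tested, with 2 up and 1 down in WT (1 up and 3 down without WT P21 replicate 2) and 2 up and 2 down in Kir (2 up and 1 down without Kir P21 replicate 1). In WT, Gfi1b rose by 2.05 ± 0.74 on counts (edgeR adjusted p = 0.0200), while its mean TPM went only from 0.47 at P0 to 0.77 at P21. Bcl11a rose by 0.35 and Zfpm1, the GATA1 cofactor, fell by 1.198 in WT. Of 12 genes that clear hemoglobin and heme, 11 could be tested, and 1 rose and 5 fell in WT, while 2 rose and 6 fell in Kir (1 and 4 without Kir P21 replicate 1). Hp, haptoglobin, which binds free hemoglobin, fell by 3.29 ± 0.50 in WT (edgeR adjusted p = 1.35e-06) from 47.9 to 5.04 TPM. Cd163, the macrophage receptor of that complex, fell by 3.07, the iron exporter Slc40a1 fell by 1.996, and the heme transporter Slc48a1 rose by 0.53. Of 7 other globins, 2 could be tested and 0 were called in either genotype: cytoglobin (Cygb, 0.01 in WT) and myoglobin (Mb, -0.26 in WT), and 0 had an unadjusted p below 0.05 (edgeR).

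Averaged over ages, 3.12% of all genes were higher and 7.43% lower in Kir. Of the membrane genes 1 was higher (Gypc) and 2 were lower in Kir, Ank1 at -0.66 ± 0.10 (edgeR adjusted p = 3.43e-06) and Dmtn at -0.31 ± 0.07 (edgeR adjusted p = 0.00423). Of the enzyme genes 2 were lower, Car2 at -0.21 among them. Of the clearance genes 3 were higher (Hmox1, Blvra and Ftl1, the last in a family with many copies), and of the other 3 red cell lists 0 were called. Marker lists moved too: 5 of 6 macrophage markers were higher and 4 of 6 olfactory neuron markers lower in Kir, and 1 of 6 bone markers was higher and 1 of 6 tested platelet markers lower. Of the sustentacular (4), globose basal (4), horizontal basal (3), endothelial (10), neutrophil (10 tested), B cell (6 tested) and proliferation (5) markers, 0 were called by edgeR. Over all lists with 0 calls here, red cell and marker lists together, 7 of 69 tested genes had an unadjusted p below 0.05.

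From P0 to P21 the marker lists changed beside the red cell genes. In WT and in Kir, endothelial markers fell (9 and 10 of 10), proliferation markers fell (5 and 5 of 5), globose basal markers fell (4 and 4 of 4) and sustentacular markers rose (4 and 4 of 4). Olfactory neuron markers rose (5 and 6 of 6) and bone and osteoclast markers rose (6 and 4 of 6), Bglap by 7.02 ± 0.85 in WT. The remaining lists were mixed, where 24% and 22.9% of all genes rose and 26.8% and 25.9% fell. Of 6 macrophage markers, 4 fell in WT and 1 in Kir (medians of -0.78 and -0.08). Of 6 platelet markers, 1 rose and 3 fell in WT and 1 rose and 4 fell in Kir. Of 3 horizontal basal markers 1 fell in WT and 3 in Kir. Of 10 neutrophil markers, 2 rose and 2 fell in WT and 0 rose and 3 fell in Kir, and of 6 B cell markers 1 fell in WT and 0 were called in Kir. That B cell marker, Pax5, fell by 1.35 on counts, but its mean TPM in WT went up, from 0.445 at P0 to 1.23 at P21. The part of this changing tissue makeup in the red cell values was not tested.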

How the data were processed

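Polyadenylated RNA of mouse olfactory epithelium was sequenced in 47 libraries of 14 groups, grouped by sample title. The authors deposited a table of raw counts and a table of TPM for each gene; bcl2fastq 2.18, STAR 2.6.1c, RSEM and mm10 are named per the submitters' processing notes, and no source used here states the strand setting. Lines of the deposited counts that name no gene (unmapped reads among them) were left out of library sizes and tests.

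The members and lists were chosen with earlier results of these data known. The globins were tested with limma 3.58.1 on log2(TPM + 1), over 27211 genes with a TPM of at least 0.5 in at least 3 libraries, because multiply mapped reads are missing from the counts of near-identical copies. Alas2, Slc4a1 and the listed genes went through the quasi-likelihood F test of edgeR 4.0.16 under R 4.3.3 on the counts, with TMM and filterByExpr, over 19927 genes. A fold change on the log2(TPM + 1) scale understates the change of low genes. Each was 1 fit of all libraries with group means and the prefix as a covariate, two-sided, with Benjamini-Hochberg adjustment over all genes tested and calls at an adjusted p below 0.05. CPM values are counts over the TMM library size. Ratios of copies were compared between genotypes by 100000 permutations of genotype within age. Both tools were tested on simulated data.

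All 8 members are named; of each list up to 4 called genes with the smallest adjusted p in WT P21 minus P0 are named, and others were singled out after their values were seen. Some genes that these rules name are not reported here. Counts of replicate libraries had 7.24 to 115 times their sampling variance between them (57 pairs). Same-numbered libraries of the genotypes had a correlation of their deviations over 0.1 in 4 of 13 pairs: all 3 at P3 (0.17 to 0.29), 1 of 4 at P0 and 0 at P14 and P21. Since not every pair did, numbers were not taken as pairs. Alternatives covered the pseudocount, the filters, the normalization, the tool (DESeq2 1.42.0 among them), the prefix term, the placing of WT P0 replicate 3, a replicate block, and each library left out. Promoters and transcript positions came from RefSeq (GRCm38.p6) and GENCODE M21.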

Additional observations from a re-analysis of the deposited data

Results flagged for a closer look

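Within groups of 4 to 10 libraries, 50 sets of values were searched for a library far from the rest, which chance gives in about 1 of 20 sets, and 2 stood out. Hba-x had 0.8 TPM in WT P0 replicate 4 and 0 TPM in the other 3 libraries. Slc4a1 had 1.02 TPM in WT P7 replicate 3, above the other 3 libraries at 0.23 to 0.34 TPM. In CPM it stood at 1.74 (42 counts), beside 1.13 (30 counts), 0.756 and 0.636 in the others. Both rest on few counts. Groups of 3 libraries, Kir P21 among them, were not searched in this way.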

How the results depend on the processing

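The result that no member was called held under each alternative run for Kir minus WT averaged over ages, at each age and in the difference between the genotypes' changes from P0 to P21, with 0 calls throughout, also with each library left out. WT P21 minus P0 had 1 call, and 0 with Alas2 and Slc4a1 by limma on TPM (0 to 1 with each library left out). Kir P21 minus P0 had 3, and 6 of 6 tested that way with the globins by edgeR on counts (1 to 6 with each library left out); with no filter on TPM Hba-a1 was not called, and without the Kir P10 libraries over 15% unmapped Hba-a2 was. The WT steps between ages had 1 call in all, and 0 with no filter on TPM, with no prefix term, with WT P0 replicate 3 placed in P3, with a replicate block, and without the Kir P10 libraries over 20% or (chosen after seeing the data) 15% unmapped (0 to 2 with each library left out). The replicate block took the call from Hba-a1 in WT P3 minus P0 (-1.28, limma adjusted p = 0.0913), changed the sign of Hba-x in WT P21 minus P0, from -0.07 to 0.0102, and changed no other call. With WT P0 replicate 3 placed in P3, Hba-x in WT P3 minus P0 went from 0.01 to -0.12.

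Leaving out 1 library reversed these log2 fold changes, given as lowest to highest. In WT P21 minus P0 they were Hba-a1 -0.23 to 0.87, Hba-a2 -0.36 to 0.64, Hbb-bt -0.21 to 0.83 and Alas2 -0.0084 to 0.35. In WT P3 minus P0 it was Hba-x, -0.063 to 0.12. In the difference between the genotypes' changes they were Hbb-bs -0.27 to 1.39 and Hbb-bt -0.040 to 1.69. Hba-x in Kir minus WT at P21 ran from -0.21 to 0, and so was not reversed. The alpha ratio between genotypes, at -0.00023, was 0.038 on counts, 0.14 in ages with prefix cry4 only and 0.099 without the Kir P10 libraries over 15% unmapped (-0.042 to 0.044 with each library left out). The beta ratio step from P3 to P14 was -0.32 on counts (-0.21 to -0.12 with each library left out). The cause of these changes was not tested. Depth limits the embryonic globins, at 171 and 65 counts in all.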
